A study of Mus musculus with 4 samples.

Results

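Cathepsins are proteases of endosomes and lysosomes, and 10 of their genes, Ctsl, Ctss, Ctsb, Ctsc, Ctsf, Ctsh, Ctsk, Ctsz, Ctsd and Ctse, were followed in mouse thymic epithelial cells (TECs). The members were taken by name: every non-control spot whose gene name, or whose RefSeq accession under its current symbol, was 1 of the 10. All 10 were found, on 13 probes among 41174, and 9 genes (12 probes) passed the filter on dim signals and were tested among 16806 features.

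In TECs, cathepsins cut the invariant chain from MHC class II molecules and cut proteins into the peptides that developing T cells are selected on. Cathepsin L is the enzyme known for this in cortical TECs. Cathepsin S does so in dendritic cells, macrophages and B cells, and is also expressed by medullary TECs. Most of the family are cysteine proteases of the papain type, whereas cathepsins D and E are aspartic proteases.

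The study compared TECs after induced loss of Meis1, a homeobox transcription factor, with control TECs. Meis1-CKO mice were K14-CreERT2 Meis1fl/fl and controls K14-CreERT2 Meis1fl/+. The strain labels write K14-CreER for both, and the genotype labels call the controls WT. The controls thus carried the same recombinase, driven by the keratin 14 promoter, and 1 floxed Meis1 allele, and all mice were injected with tamoxifen, 1 mg on each of 3 days, at 3 weeks of age. CD45- EpCAM+ cells were sorted 4 days later. The 2 independent experiments gave 2 pools per genotype, each of 6 mice. Each pool was hybridised to 1 single-colour array after amplification from 10 ng of RNA. Control 1 and Meis1-CKO 1 shared slide 1 and its scan, and control 2 and Meis1-CKO 2 shared slide 2. The replicate number thus stands for both the slide and its scan. The sources do not tie replicate numbers to the 2 independent experiments, so the arrays of a slide are not known to be from the same experiment.

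Values are log2 signals relative to the 75th percentile of all non-control spots of the array, and a difference is Meis1-CKO minus control. A probe was called above background by the scanner software's own flag. Between 58.6% and 63.6% of non-control spots were above background, and no spot was saturated. The 7 general TEC markers (Epcam, Krt8, Krt18, Foxn1, Trp63, Cdh1 and H2-Aa) were above background on all 4 arrays. Meis1-CKO 2 stood apart, with correlations of 0.857 to 0.884 with the other arrays across 16797 features, against 0.936 to 0.943 among those. Differences are therefore mostly also given by slide or without that array. The better measured Meis1 probe read -0.12 and -0.91 in controls 1 and 2 and -0.44 and -2.08 in Meis1-CKO 1 and 2. The floxed exons are not given in the sources used here, so this probe does not check the deletion.

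Ctsz was the one multi-probe member whose probes were both higher in Meis1-CKO on both slides, so its probe sequences are shown first. Both were 60 bases long, lay on the minus strand of chromosome 2 of mm9, at chr2:174253228-174253287 (probe 1) and chr2:174254084-174254143 (probe 2), and started 856 bases apart. Each had at least 1 reading frame without a stop codon over its length. Whether a probe lies in an exon's coding part was not annotated here. They read, 5′ to 3′:
Ctsz probe 1: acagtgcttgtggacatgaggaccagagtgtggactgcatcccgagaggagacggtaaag
Ctsz probe 2: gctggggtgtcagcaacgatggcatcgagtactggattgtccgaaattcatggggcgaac

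RefSeq promoter windows on GRCm38.p6 matched 7 of the 10 genes, all but Ctsb, Ctse and Ctsh. The 250 bases before the annotated start are shown for Ctss, Ctsc and Ctsz, the 3 genes with a window for which both Meis1-CKO arrays read above both control arrays. Capitals mark every match to either strand of 3 short patterns, which may not be sites of any factor. The first is GAAA repeated after 2 bases, as in interferon response elements. The second is TCACGTG, the core of the E-box common in lysosomal gene promoters. The third is TGACAG, a core bound by MEIS proteins.
Ctss, chr3:95526536-95526785, plus strand: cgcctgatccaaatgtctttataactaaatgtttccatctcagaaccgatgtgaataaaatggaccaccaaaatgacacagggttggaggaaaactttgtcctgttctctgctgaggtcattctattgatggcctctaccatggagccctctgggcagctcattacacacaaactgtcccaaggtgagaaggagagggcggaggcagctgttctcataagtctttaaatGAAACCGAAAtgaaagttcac
Ctsc, chr7:88277835-88278084, plus strand: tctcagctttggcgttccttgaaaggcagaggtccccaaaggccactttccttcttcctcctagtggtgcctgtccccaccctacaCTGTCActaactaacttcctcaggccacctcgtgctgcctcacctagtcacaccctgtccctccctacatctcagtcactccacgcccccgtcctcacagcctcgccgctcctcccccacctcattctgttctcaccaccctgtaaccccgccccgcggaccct
Ctsz, chr2:174439040-174439289, minus strand: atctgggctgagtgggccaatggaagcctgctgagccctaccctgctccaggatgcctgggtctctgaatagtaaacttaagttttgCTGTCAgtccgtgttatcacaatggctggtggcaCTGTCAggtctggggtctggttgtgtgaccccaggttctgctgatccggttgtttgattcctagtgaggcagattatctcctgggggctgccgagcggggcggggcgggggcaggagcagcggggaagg

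The GAAA repeat was found in Ctss alone of the 7 windows, from position -21 to -12 relative to the start, and in 2.98% of all 32851 windows. TGACAG was found in Ctsz, with matches starting at -163 and -129, and in Ctsc at -164, against 15.9% of all windows. TCACGTG was found in Ctsd alone, with matches starting at -245 and -99, the latter read on both strands and so overlapping itself, against 3.13% of all windows. No pattern was found in the windows of Ctsf and Ctsk, nor in that of Ctsl, which lies inside the span the same RefSeq table gives for the gene and so may not be its promoter.

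None of the 9 tested cathepsin genes was called different between genotypes. The limma calls, at 0.05 after adjustment, came to 0 of the 9 genes and 0% of the 16806 features. At an unadjusted p under 0.05 it gave 0 of the 9, against 2.77% of features. Fitted probe by probe, 0 of the 12 tested probes passed, as did 0% of 24267 probes. The 9 genes had limma adjusted p-values of 1 each, with and without the slide as a block.

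The direction was nevertheless mostly one way. Of the 9 genes, 8 had a higher mean in Meis1-CKO and 1 (Ctsl) a lower one, with a median log2 difference of 0.65, against -0.05 over all features, 45.4% of which were higher. Both Meis1-CKO arrays read above both control arrays for 5 of the 9 (Ctss, Ctsc, Ctse, Ctsh and Ctsz), against 11.1% of features, and below both for 0 of the 9, against 14.4%. The count above both controls was 3 with median scaling (Ctsh, Ctss and Ctsz). It was also 3 with normexp background correction and quantile normalization (Ctsc, Ctsh and Ctss). The share of all features was not computed for these settings. A higher value in Meis1-CKO on both slides was found for 6 of the 9, against 20.4% of features. In bulk RNA, more cells of a type and more RNA per cell cannot be told apart.

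The difference was uneven between the pools. On slide 1 the 9 genes had a median difference of 0.20, from -0.37 to 0.59, and 0 reached 2-fold. The share of features at 2-fold on slide 1 was not computed, and 17.5% of features were at or above 0.59 there. On slide 2 the median of the 9 genes was 0.88, from -0.21 to 2.06, and 3 of the 9 (Ctss, Ctse and Ctsc) were at least 2-fold higher, against 11.3% of features. Over all features the medians were 0.001 on slide 1 and -0.12 on slide 2. Whatever the other Meis1-CKO array read, Meis1-CKO 1 was above both controls for 7 of the 9, against 29.1% of features. Counted the same way, Meis1-CKO 2 was above both for 6 of the 9, against 32.8%. Without Meis1-CKO 2 the median difference of the 9 genes was 0.30, and without control 2 it was 0.42.

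**Figure D1:**
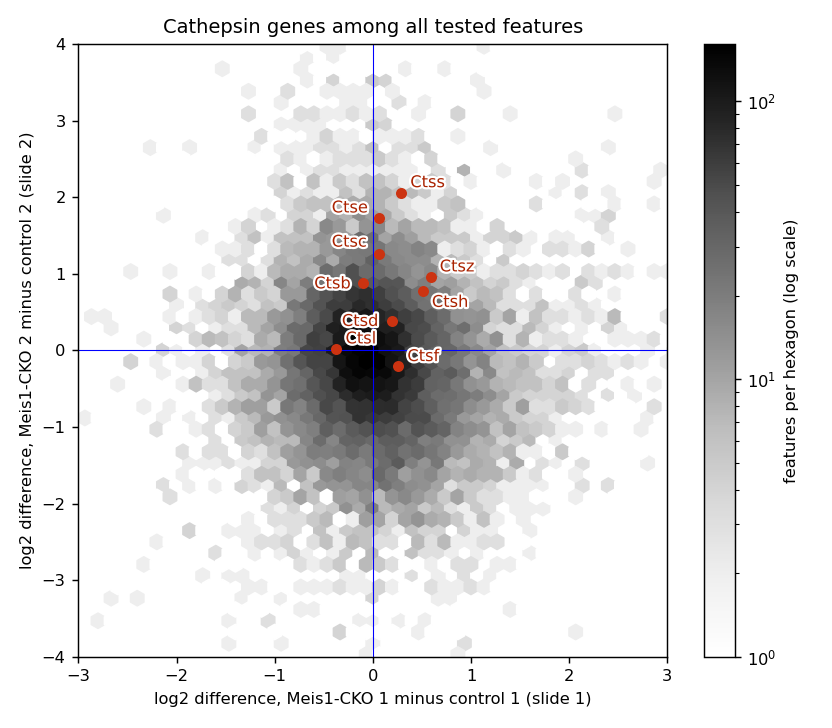
Log2 differences of Meis1-CKO minus control on slide 1 (x axis) and slide 2 (y axis) for the features complete on all 4 arrays, as grey hexagons shaded by their number on a log scale, with the 9 tested cathepsin genes as red points (1 probe per gene). The cathepsins lie between -0.37 and 0.59 on slide 1 and between -0.21 and 2.06 on slide 2, with Ctss highest; features beyond the axis limits are not drawn.

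Among the invariant chain proteases, Ctss and Ctsl did not move together. Ctss read 4.56 in control 1, 4.69 in control 2, 4.85 in Meis1-CKO 1 and 6.75 in Meis1-CKO 2. The first 3 arrays were thus close to each other, and Meis1-CKO 2 alone was far above them. The log2 difference was 1.18, or 2.26-fold (SE 0.71, n = 2 pools per genotype, limma adjusted p = 1). Slide by slide it was 0.29 and 2.06. A slide 2 difference at least as high was seen for 3.64% of features, and a slide 1 difference at least as high for 29.7%. Without Meis1-CKO 2 the Ctss difference was 0.23. Its probe lies at chr3:95360162-95360221 on the plus strand of mm9.

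Ctsl, the cortical TEC enzyme, read 6.36 in control 1, 5.07 in control 2, 5.99 in Meis1-CKO 1 and 5.09 in Meis1-CKO 2. The groups overlapped, and both arrays of slide 2 were lower than both of slide 1. The 2 controls differed from each other by 1.29, more than either slide's difference between genotypes, which was -0.37 on slide 1 and 0.02 on slide 2. The overall log2 difference of -0.18 (SE 0.63, limma adjusted p = 1) turned to 0.27 without Meis1-CKO 2 and to 0.47 without control 1. The Ctsl probe lies at chr13:64465287-64465346 on the minus strand of mm9. Relative to Ctsl, Ctss was thus higher in Meis1-CKO by 0.67 on slide 1 and by 2.04 on slide 2, as a difference of the 2 genes' differences.

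Ctsf, a cysteine protease known to process the invariant chain in macrophages, read 2.07 and 1.83 in the controls and 2.33 and 1.62 in Meis1-CKO 1 and 2. Meis1-CKO 1 was the highest array and Meis1-CKO 2 the lowest, and the difference went opposite ways on the slides (0.26 and -0.21). The overall difference was 0.03 (SE 0.48, limma adjusted p = 1). Its probe lies at chr19:4860454-4860513 on the plus strand.

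Of the peptidases that trim the ends of peptides, Ctsh, Ctsz and Ctsc read higher in both Meis1-CKO pools, and Ctsb in 1 pool. Ctsh, an aminopeptidase, read 3.80 and 3.72 in the controls and 4.32 and 4.50 in Meis1-CKO 1 and 2. Its differences on the slides were 0.51 and 0.78, and both Meis1-CKO values lay clear of both controls. The log2 difference was 0.65, or 1.57-fold (SE 0.43, limma adjusted p = 1), and stayed between 0.55 and 0.74 over all alternatives run. The probe lies at chr9:89970828-89970887 on the plus strand.

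Ctsz, a carboxypeptidase, read 3.92 and 4.50 in the controls and 4.51 and 5.46 in Meis1-CKO 1 and 2 at probe 1. The groups were separate by only 0.01, since Meis1-CKO 1 lay beside control 2. The log2 difference was 0.78 (SE 0.54, limma adjusted p = 1), made up of 0.59 and 0.96 from the slides. It was 0.30 without Meis1-CKO 2 and 0.49 without control 1. Probe 2 read 1.12 and 2.12 in the controls and 1.27 and 3.35 in Meis1-CKO, with differences of 0.15 and 1.23 on the slides. There the groups overlapped, as control 2 read above Meis1-CKO 1.

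Ctsc, the dipeptidyl peptidase that activates granule serine proteases of leukocytes, read 2.11 and 1.82 in the controls and 2.17 and 3.08 in Meis1-CKO 1 and 2. Meis1-CKO 1 exceeded control 1 by 0.06, so the overall log2 difference of 0.66 (SE 0.51, limma adjusted p = 1) came mainly from slide 2, where it was 1.26. Without Meis1-CKO 2 it was 0.20. The probe lies at chr7:95458436-95458495 on the plus strand.

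Ctsb, which can act both within a protein and at its carboxyl end, was measured by 2 probes whose starts lay 2225 bases apart on the plus strand of chromosome 14. Probe 1, at chr14:63761906-63761965, read 4.31 and 4.35 in the controls and 4.21 and 5.24 in Meis1-CKO 1 and 2, so that only Meis1-CKO 2 lay outside the others. Its log2 difference was 0.39 (SE 0.52, limma adjusted p = 1), or slide by slide -0.10 and 0.88, and -0.12 without Meis1-CKO 2. Probe 1 contains AATAAA, the letters of a polyadenylation signal. Probe 2, at chr14:63764131-63764190 further downstream, read -4.54, -2.87, -2.97 and -1.99 in the same order and was not above background in control 1. It gave 1.57 and 0.87 on the slides, the former resting on the dim control 1.

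Ctsk, the collagen-degrading cathepsin known from osteoclasts, was above background only in control 2 and Meis1-CKO 1 and was not tested. It read -3.99 and -3.06 in the controls and -2.16 and -3.90 in Meis1-CKO 1 and 2. It has no measured level on the other 2 arrays beyond a dim signal, and its differences of 1.83 and -0.84 on the slides each set a measured signal against a dim one. Its probe covers 245 bases of chromosome 3 (chr3:95310647-95310891, plus strand) with 60, so that by these coordinates it crosses a splice junction. 

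The aspartic proteases differed from each other. Ctsd, an abundant lysosomal endopeptidase, read 1.81 and 1.17 in the controls and 2.01 and 1.56 in Meis1-CKO 1 and 2 at probe 1 (chr7:149561962-149562021, minus strand). The groups overlapped, with differences of 0.20 and 0.39 on the slides and of 0.30 overall (SE 0.48, limma adjusted p = 1). Without control 2 it was -0.02. Ctsd probe 2, covering chr7:149562628-149562781, read 1.79, 0.81, 1.72 and 1.76 in the same order and gave -0.07 and 0.95.

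Ctse, an endosomal aspartic protease of immune and some epithelial cells, read -1.08 and -2.44 in the controls and -1.03 and -0.71 in Meis1-CKO 1 and 2. Control 2 was the array that lay apart, 1.36 below control 1, and Meis1-CKO 1 exceeded control 1 by 0.06. The log2 difference was 0.90, or 1.86-fold (SE 0.60, limma adjusted p = 1), or slide by slide 0.06 and 1.73, and 0.22 without control 2. With normexp and quantile normalization it was 0.36. The Ctse groups were no longer separate there, nor with median scaling. The probe lies at chr1:133571935-133571994 on the plus strand of mm9.

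**Figure D2:**
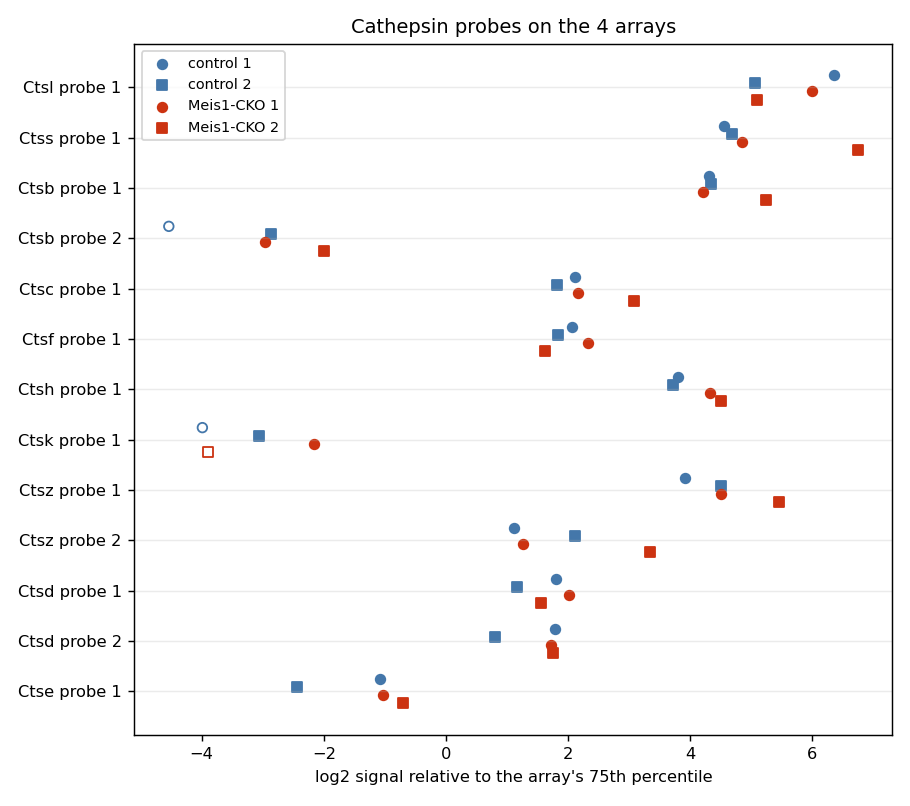
Log2 signal relative to the 75th percentile of each array (x axis) for all 13 cathepsin probes, with control arrays in blue and Meis1-CKO arrays in red, circles for slide 1 and squares for slide 2, and open symbols where a probe was not above background. Meis1-CKO 2 is the rightmost point for Ctss (6.75), Ctsb, Ctsc, Ctsh, Ctsz and Ctse, while the Ctsl points part by slide rather than by genotype; levels of different probes are not comparable.

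Genes of MHC class II loading, of lysosomes and of cathepsin inhibition were followed as 5 lists, chosen with earlier results of these data known. No member of any list passed the limma test (0% of features did). In the MHC class II list, 8 of 11 genes were higher and 3 lower, with a median difference of 0.18 (-0.04 on slide 1, 0.48 on slide 2). Cd74, the invariant chain that cathepsins L and S cut, read 7.75 and 7.71 in the controls and 7.71 and 8.08 in Meis1-CKO 1 and 2. Its difference of 0.16 (SE 0.44) was small beside that of Ctss. H2-DMa, a chain of the peptide exchange factor, had a difference of 0.67 (-0.38 and 1.72 on the slides). Ifi30, a lysosomal thiol reductase, had 0.66 (0.05 and 1.28), and H2-Eb1 0.57 (-0.02 and 1.15). Without Meis1-CKO 2, Cd74, Ifi30 and H2-Eb1 lay between -0.09 and 0.06 and H2-DMa at 0.11.

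Other lysosomal peptidases had 7 of 10 tested genes higher, with a median of 0.45, and of -0.11 without Meis1-CKO 2. Prss16, the thymus-specific serine protease of cortical TECs, moved the other way from Ctss on slide 2. It read 2.90 and 2.58 in the controls, 2.86 in Meis1-CKO 1 and 0.02 in Meis1-CKO 2, a difference of -1.30 (SE 0.96, limma adjusted p = 1). Without Meis1-CKO 2 it was 0.12. Lgmn, the asparaginyl endopeptidase that processes cathepsins, read -2.19, -1.12, -2.00 and 0.50 in the order control 1, control 2, Meis1-CKO 1 and Meis1-CKO 2. Napsa, an aspartic protease like Ctsd and Ctse, read -2.32, -1.82, -2.57 and 1.98 in that order. Both were thus highest in Meis1-CKO 2, and without it their differences were -0.34 and -0.50.

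Of the list named cathepsin inhibitors, which holds cystatin and serpin family genes, 4 of 9 tested genes were higher and 5 lower. Whether each inhibits the cathepsins followed here was not tested. The list had a median of -0.06, and slide by slide of 0.02 and -0.35. Cst3, the secreted inhibitor cystatin C, was far above the other arrays in Meis1-CKO 2. It read 4.00 and 3.34 in the controls, 3.49 in Meis1-CKO 1 and 7.62 in Meis1-CKO 2, a difference of 1.89 (SE 1.33, limma adjusted p = 1) and of -0.18 without Meis1-CKO 2. Cst9 was higher in both pools, at -2.42 and -1.69 in the controls and 0.46 and -0.67 in Meis1-CKO 1 and 2 (difference 1.95, SE 0.58, limma adjusted p = 1). Without Meis1-CKO 2 the difference of Cst9 was 2.51. Serpinb1a, a serpin, had a difference of -0.65, and of -0.02 without Meis1-CKO 2.

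Genes of lysosomal delivery and acidification had a median of 0.06, with 8 of 15 higher, and of 0.11 without Meis1-CKO 2. M6pr, the receptor that carries cathepsins to lysosomes, had a difference of 0.76 (0.07 and 1.45 on the slides), and its 2 other probes gave 0.34 and 0.66. The lysosomal regulator Tfeb was above background on both Meis1-CKO arrays and on no control array. By an approximate bound on the group means, Tfeb was at least 1.02-fold higher, which is close to no difference. Its relative Mitf was above background on both control arrays and no Meis1-CKO array, at least 1.59-fold lower by the same kind of bound. Tfeb and Mitf each passed the filter only through the group where they were above background. That contrast is thus partly what let them be tested. By slide, the values of Tfeb differed by 1.49 and 1.12 and those of Mitf by -0.90 and -2.43, each against a signal not above background. The bounds take, for each dim array, the lowest signal above background there, or the gene's own where that is higher. They are approximate, since a probe can read above that lowest signal and still not be called above background. Neither passed the test (limma adjusted p = 1).

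Other lysosomal hydrolases had 12 of 14 genes higher, with a median of 0.43. Slide by slide it was 0.01 and 0.96, beside 0.20 and 0.88 for the cathepsins. Man2b1, an alpha-mannosidase, read 0.46 and 0.64 in the controls, 0.49 in Meis1-CKO 1 and 3.32 in Meis1-CKO 2 (difference 1.36, SE 0.95, limma adjusted p = 1). Only Meis1-CKO 2 was thus apart, and without it the difference was -0.06. Without Meis1-CKO 2, the list's median was 0.12.

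**Figure D3:**
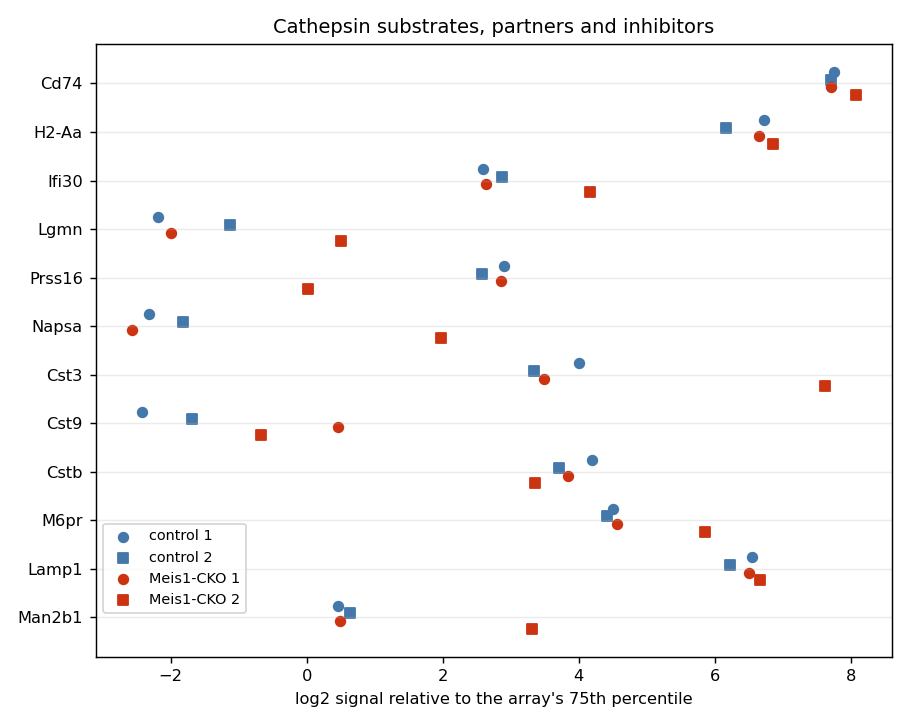
Log2 signal relative to the 75th percentile of each array (x axis) for 12 genes of the MHC class II, lysosomal and inhibitor lists, colours and symbols by genotype and slide as given in the key. Whether cathepsins act on or with each gene, as the figure's title has it, was not tested. Meis1-CKO 2 (red squares) lies far from the other arrays for Cst3 (7.62), Napsa and Man2b1 on the high side and for Prss16 (0.02) on the low side, while Cd74 and Lamp1 differ little between arrays; levels of different genes are not comparable.

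Most dendritic cell, macrophage, general leukocyte and interferon-induced genes were highest in Meis1-CKO 2, whereas markers of some other cell types were not. Of 18 dendritic cell and macrophage genes on the array, 13 were highest in Meis1-CKO 2, as were 6 of 7 general leukocyte genes and 18 of 18 interferon-induced genes, against 29.1% of all tested features. Among the other lists, so were 11 of 14 lysosomal hydrolase genes, 8 of 11 MHC class II genes and 8 of 16 thymocyte genes. The same held for 3 of 8 B cell, 3 of 8 endothelial, 0 of 10 fibroblast and 0 of 6 erythroid genes. These counts take every list gene on the array, whereas the 29.1% is of tested features only. They thus include dim, untested genes that were highest in Meis1-CKO 2, among them Cd209a, C1qa, Themis, Rag2, Cd79a, Kdr and Cldn5. All 7 general leukocyte and all 18 interferon-induced genes were tested. The log2 of the summed signal of the dendritic cell and macrophage list was 5.05 and 5.38 in the controls and 5.26 and 6.73 in Meis1-CKO 1 and 2. For general leukocyte genes it was 4.82, 5.11, 4.67 and 7.09 in that order, and for interferon-induced genes 6.72, 6.55, 6.51 and 8.35. Ifit2, Rsad2 and Irf7 had the largest differences of the last list, at 2.59, 1.86 and 1.73, and 0.29, 0.18 and -0.61 without Meis1-CKO 2 (limma adjusted p = 1 each). Itgax, which marks dendritic cells, read -3.76 (not above background), -2.00, -2.82 and 2.97, and Tyrobp, a myeloid adaptor, 0.14, 0.26, 0.10 and 4.89. Other genes of that list were not higher on slide 2, with differences of -0.49 for Lyz2, -0.11 for Adgre1 and -0.07 for C1qb, and of -2.88 for Mrc1, which was not above background in Meis1-CKO 2. Cathepsin S, cystatin C and napsin A are genes that dendritic cells express. The CD45- EpCAM+ sort is meant to leave such cells out, and the part of these cells in the cathepsin differences was not tested.

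The TEC lists had lower medians in that array, though not every gene of them did. The 11 cortical TEC genes had median differences of -0.04 and -1.16 on the slides, the 11 medullary genes 0.05 and -0.69, and the 7 general TEC genes 0.03 and -0.70. On slide 2, 3 of the 11 cortical genes (Cd83, Ly75 and Dll4, by 3.63, 1.25 and 0.54), 1 of the 11 medullary and 1 of the 7 general genes (H2-Aa, by 0.69) were higher. The lists share genes: H2-Aa is also in the MHC class II list, and Krt8 and Foxn1 are in both the cortical and the general TEC list. The thymocyte list had medians of -1.91 and 0.99 on the slides. B cell genes had 0.14 and 0.20 on the slides, endothelial genes 0.39 and -0.83 over 3 tested genes, fibroblast genes 0.08 and -1.49 and erythroid genes -0.19 and -1.11. Emcn and Eng of the endothelial list, Klf1 of the erythroid and Rag2 of the thymocyte list were above background on no array. Without Meis1-CKO 2 the dendritic cell and macrophage list had a median of -0.11, the general leukocyte list -0.50 and the interferon-induced list -0.10. The cathepsin median fell from 0.65 to 0.30 there, and the fibroblast, endothelial and erythroid lists had medians of 0.49, 0.44 and 0.32.

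**Figure D4:**
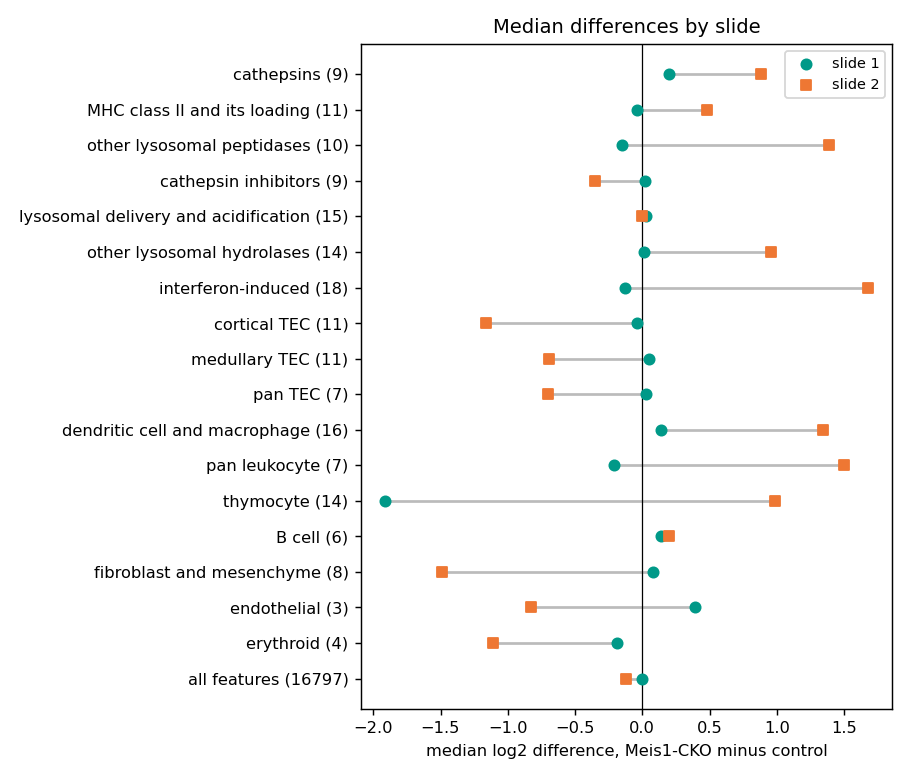
Median log2 difference of Meis1-CKO minus control (x axis) over the tested genes of each list (number in brackets), on slide 1 (teal circles) and slide 2 (orange squares), joined by a grey line. The cathepsins stand at 0.20 and 0.88; the interferon-induced, general leukocyte, and dendritic cell and macrophage lists lie between -0.21 and 0.14 on slide 1 and between 1.34 and 1.68 on slide 2, and the TEC lists are below 0 on slide 2.

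The genes whose values over the 4 arrays lay nearest to those of Ctss and Ctsl were taken among 11953 other genes above background on all arrays. Likeness was the root mean square distance of log2 values, each gene centred on its own mean. For Ctss these were Synj1 (distance 0.03; values 1.87, 1.94, 2.08 and 4.03), Pip4k2a (0.03) and Cmpk2 (0.04), and 123 genes lay within 0.25. For Ctsl they were Itgav (0.02; values 1.31, 0.06, 0.93 and 0.03) and Efemp1 (0.03), with 428 genes within 0.25. With 4 arrays, many genes share such a pattern.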

How the data were processed

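The members and lists were chosen with earlier results of these data known. The deposited scanner files hold linear spot intensity values, which Agilent Feature Extraction 9.5.3.1 had background-subtracted and detrended, with low values replaced by surrogates, per the file headers and the submitters' processing notes; no scaling between arrays is recorded there. The authors' deposited value table holds log2 values, processing not given in the sources used here: differences between its columns matched the scaled scanner values (slope 1, 20818 probes), each probe was centred on its median, and column medians were 0.04, 0.09, -0.06 and -0.12 (control 1 and 2, Meis1-CKO 1 and 2). It served as an alternative.

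Of 45018 spots, 1639 control spots and 63 to 78 flagged spots per array were left out, and log2 signals minus each array's 75th percentile were averaged per probe. A probe was tested if both arrays of either group were above background, and the brightest one stood for its gene. Of 41174 probes, 26690 were named by accession and 952 by older symbol through a RefSeq gene table (GRCm38.p6), and 6828 had no symbol. Groups were compared with limma 3.58.1 (R 4.3.3), using the 4 arrays and no block, and p-values were adjusted over the features (Benjamini-Hochberg, threshold 0.05). The fit was tested on simulated data. Only 4 arrays limit the precision. Without a block, the p-values rest on the spread between arrays of a group, which joins pool, slide and scan. limma moderates that spread with the spread of all features (2 residual and 5.516 total degrees of freedom). Named genes are all members, up to 3 tested genes per pathway list with the largest difference, Cd74, Lgmn, Prss16, Cst3 and Ifi30, and the 3 nearest patterns of Ctsl and Ctss, with clone names passed over and a few genes that the rule takes not reported here; Cstb, H2-Aa, Lamp1, and the cell type markers given with values were chosen after their values were seen. Alternatives are given in the closing section. Same-numbered arrays deviated together with a correlation of 0.13 across genes.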

Additional observations from a re-analysis of the deposited data

How the results depend on the processing

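Results were recomputed with median scaling, quantile normalization, normexp with quantile normalization, the deposited value table, no filter, a filter to probes above background on all 4 arrays, the mean of a gene's probes, the replicate block and each array left out. No cathepsin gene passed the limma test in any of these. With the replicate number (slide) as a block, limma called 0 features higher and 0 lower. In this balanced design the block cannot move a difference, so the cathepsin median of 0.65 is the same by construction. That median was 0.36 with normexp and quantile normalization and ranged from 0.30 to 0.91 with an array left out. The count of cathepsins with both Meis1-CKO arrays above both controls, whose alternatives were chosen after seeing the data, was 3 with normexp and quantile normalization, 3 with median scaling, 4 with quantile normalization and 4 with the mean of a gene's probes. With an array left out it was 5 to 7, but it cannot fall then, as fewer arrays have to be separate. The share of all features was not computed for any of these alternatives, so these counts stand without it. Features called ranged from 0 to 200 higher and from 0 to 117 lower with an array left out, the largest without Meis1-CKO 1, where the lone array is assumed to vary like the controls; Ctss then had a difference of 2.13 (limma adjusted p = 0.105). With an array left out, Ctsb ranged from -0.12 to 0.91, Ctsd from -0.02 to 0.62, Ctsf from -0.32 to 0.38 and Ctsl from -0.82 to 0.47. Signs turned for Ctsb without Meis1-CKO 2 (-0.12), Ctsd without control 2 (-0.02), Ctsf without control 2 (-0.09) or Meis1-CKO 1 (-0.32) and Ctsl without control 1 (0.47) or Meis1-CKO 2 (0.27). The cause was not tested. Ctsk and Ctsb probe 2 were limited by signal near background.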
